A study of Mus musculus with 8 samples.

Results

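The 10 genes described here are markers and regulators of the epithelial-mesenchymal transition: Vim, Zeb1, Zeb2, Snai1, Snai2, Twist1, Cdh2, Prrx1, Prrx2 and Tgfbi. They were taken by symbol from a bulk count table of 52459 genes and from a pair of single-cell matrices of 31053 genes, and all 10 were found in each. Levels were compared between tumor sites, and between epithelial cells and leukocytes. Epithelial cells were those with at least 30 UMIs of Krt8, Krt18 and Krt19 together per 10000 UMIs. Leukocytes were cells under that gate with at least 20 UMIs of 8 leukocyte markers (such as Ptprc, which encodes CD45) per 10000. None of the 10 genes is part of either gate.

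In an epithelial-mesenchymal transition, epithelial cells loosen their junctions and take on the shape, motility and matrix genes of mesenchymal cells. Transcription factors of the Snail (Snai1, Snai2), ZEB (Zeb1, Zeb2), Twist and Prrx families drive this program and repress epithelial genes such as Cdh1 (E-cadherin). Vim (an intermediate filament protein), Cdh2 (N-cadherin) and Tgfbi (a secreted matrix protein induced by TGF-beta) are used as readouts of the mesenchymal state. Several of these genes are also active outside tumor cells: fibroblasts carry most of them, and Vim and Zeb2 are expressed in leukocytes.

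All tumors came from FC1242, a pancreatic cancer line labelled as KPC. In C57BL/6 mice 100000 cells were injected either into the pancreas, giving primary tumors, or so that they grew in the liver, giving tumors labelled as liver metastases, and both were harvested after 3 weeks. Bulk RNA-seq covered 3 tumors of each site, and CD45+ cells sorted from tumors gave 1 10x single-cell library per site. Every tumor derives from a single injected line, the labels do not say how the liver tumors were seeded, and sex, batch and pooling of mice are not given. Nothing in the labels ties a library to a separate mouse, so p-values measure the spread between these libraries, which may be technical.

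Bulk libraries held 27481390 to 36743247 reads, and the single-cell libraries 82083967 (primary) and 161890665 (liver) UMIs. Called cells numbered 2277 in the primary library, of which 233 (10.2%) were epithelial and 1916 leukocytes. The liver library had 7618 called cells, with 3649 epithelial cells (47.9%) and 3680 leukocytes. Both libraries were sorted for CD45. Droplets past both gates numbered 3 and 535, and 7 barcodes were called as cells in both libraries. The epithelial label held for other genes: against 12.9% of all genes tested, of 16 tested epithelial genes outside the gate, 8 were higher in the keratin-gated cells than in leukocytes, among them Esrp2, Crb3, Elf3 and Epcam, and 0 were higher in leukocytes in edgeR (0 also at an unadjusted p under 0.05). In bulk, summed hepatocyte markers ran from 68.7 to 531.9 CPM (counts per 1000000) in primary and from 47440 to 94620 CPM in liver tumors.

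Twist1 was higher in epithelial cells, Zeb2 in leukocytes, and Snai1 holds a binding motif of the Snail and ZEB proteins themselves. Sequences upstream of these 3 members are shown. Each is the 250 bases before a RefSeq start site (GRCm38.p6), printed 5′ to 3′ along the gene. For Twist1 the window is chr12:33957421-33957670 on the plus strand, for Snai1 chr2:167537945-167538194 on the plus strand, and for Zeb2 chr2:45117443-45117692 on the minus strand, the outermost of 4 starts listed. Capitals mark matches, on either strand, to 4 motifs: the E-box with the letters CAGGTG that Snail and ZEB proteins bind, the PU.1 core with the letters GAGGAA, the GC box with the letters GGGCGG and the TATA box with the letters TATAAA. None of these matches overlaps another.
Twist1: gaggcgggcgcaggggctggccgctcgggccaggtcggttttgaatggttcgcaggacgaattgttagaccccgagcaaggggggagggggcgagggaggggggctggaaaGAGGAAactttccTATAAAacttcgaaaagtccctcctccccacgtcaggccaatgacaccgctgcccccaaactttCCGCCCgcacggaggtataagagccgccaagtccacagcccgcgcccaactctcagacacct
Snai1: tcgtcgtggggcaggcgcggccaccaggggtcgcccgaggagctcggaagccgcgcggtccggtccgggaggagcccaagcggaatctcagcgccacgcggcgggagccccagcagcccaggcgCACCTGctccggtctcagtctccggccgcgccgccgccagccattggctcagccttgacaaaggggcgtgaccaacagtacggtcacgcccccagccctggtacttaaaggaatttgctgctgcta
Zeb2: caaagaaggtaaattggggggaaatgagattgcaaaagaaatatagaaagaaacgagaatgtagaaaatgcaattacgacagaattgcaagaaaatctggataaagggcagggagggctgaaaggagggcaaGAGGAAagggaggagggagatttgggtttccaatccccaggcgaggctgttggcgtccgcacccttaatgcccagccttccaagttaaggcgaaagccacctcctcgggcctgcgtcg
Of 32851 mouse promoter windows of this length, 17.2% hold the E-box, 23.3% the PU.1 core, 32.7% the GC box and 12.4% the TATA box. The Snai1 window holds 1 E-box, with its first base 126 bases before the start, and none of the other motifs. Twist1 holds a PU.1 core, a TATA box and a GC box, and the Zeb2 window holds a PU.1 core only. Of the 7 members with a window analysed, only Snai1 held this E-box, and 1 of 7 is near the 17.2% share of all windows. A match is a match of letters and shows no binding.

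The comparison of bulk tumors asked which of the genes differed between liver and pancreas. Of the 10 members, all of which passed the filter on low counts, Snai2 and Tgfbi were higher in liver tumors. None was called lower in edgeR, while 3 (Vim, Twist1 and Prrx2) had an unadjusted p under 0.05 in that direction. DESeq2 and limma-voom each called 1 of these lower, Vim. Over all 16487 genes tested 16.7% were called higher and 6.26% lower, so 2 of 10 is near the background share. The median log2 change was 0.23 over the members and -0.07 over all genes tested. Every liver library lay above every primary library for 2 members and below for 1, against 23.8% and 20.2% of all genes tested. With library totals free of hepatocyte markers in place of TMM, 2226 genes were called higher and 3546 lower in place of 2755 and 1032, the median of all genes moved to -0.42, and 3 members (Vim, Twist1 and Prrx2) were called lower. In bulk tissue, fewer cells of a type and less RNA per cell cannot be told apart.

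**Figure D1:**
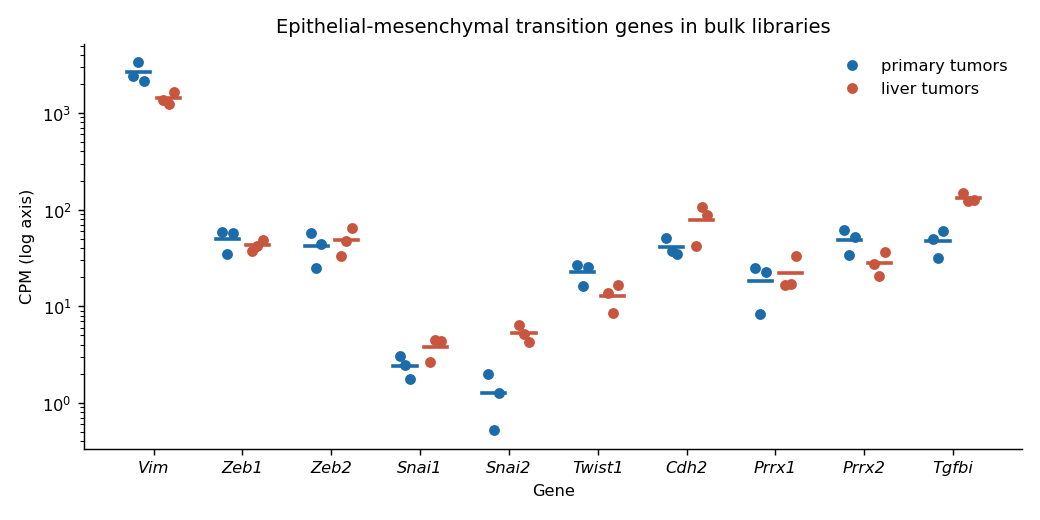
Level of each gene in the 6 bulk libraries (points; y axis, TMM-scaled CPM on a log axis; x axis, gene), with a line at the mean of the 3 libraries of a site. Snai2 and Tgfbi have all liver points above all primary points, and Vim all liver points below; heights compare libraries within a gene, since CPM is not divided by gene length.

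Tgfbi had 49.5, 31.7 and 59.7 CPM in the primary tumors and 148.1, 124.4 and 126.3 CPM in the liver tumors. The groups did not overlap, and the lowest liver library was above 2-fold of the highest primary one. Means were 47.0 ± 14.2 CPM and 132.9 ± 13.2 CPM (SD over 3 libraries), a log2 change of 1.50 (SE 0.25, adjusted p = 0.00388 in edgeR). Summed markers of macrophages or monocytes ran from 240.5 to 463.2 CPM in primary and from 642.5 to 756.0 CPM in liver tumors, with 8 of 10 called higher and none of the markers at 0. Leukocyte markers behaved alike, with 8 of 8 called higher, from 181.6 to 216.8 CPM against 407.5 to 440.7 CPM. Their part in the Tgfbi difference was not tested.

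Snai2, which encodes the zinc-finger repressor Slug, was the lowest member by FPKM in the primary tumors. It had 1.99, 0.52 and 1.27 CPM there (81, 15 and 51 reads) and 6.37, 5.22 and 4.28 CPM in the liver tumors. Again no liver library overlapped with a primary one. The log2 change was 2.05 (SE 0.49, 95% interval 0.94 to 3.17, adjusted p = 0.0189), a 4.16-fold difference. The call ended without primary replicate 3 (adjusted p = 0.0523), without liver replicate 1 (0.0825) or without liver replicate 2 (0.0684), at log2 changes of 1.87 to 2.07. Fibroblast markers moved the same way, from 373.1 to 999.1 CPM in primary and 1436 to 1858 CPM in liver tumors, with 6 of 8 called higher and none at 0. So did stellate or mural markers (121.5 to 148.5 against 236.9 to 311.5 CPM, 5 of 8 called higher), and the part of both in the Snai2 difference was not tested.

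Its paralog Snai1, the Snail repressor, had 3.02, 2.46 and 1.76 CPM in primary and 2.64, 4.47 and 4.37 CPM in liver tumors. These groups overlapped through liver replicate 1 (log2 change 0.67, adjusted p = 0.222). The difference between the changes of the paralogs was not tested.

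Vim showed the opposite order to Tgfbi. It had 2440, 3346 and 2123 CPM in the primary tumors and 1360, 1232 and 1664 CPM in the liver tumors, so that every liver library was lower. The log2 change of -0.89 (SE 0.29, 95% interval -1.57 to -0.22) missed the threshold in edgeR (adjusted p = 0.0618), but passed it in DESeq2 (0.00804), in limma-voom (0.0306) and on log2(FPKM + 1) with limma (0.0318). Krt8, Krt18 and Krt19 summed to 2766 to 7437 CPM in primary and 2043 to 2293 CPM in liver tumors, also lower in every liver library though none of the 3 was called. Their part in the Vim difference was not tested.

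The basic helix-loop-helix factor Twist1 and the homeobox factor Prrx2 had similar patterns. Twist1 had 26.6, 16.3 and 25.2 CPM in primary and 13.6, 8.56 and 16.5 CPM in liver tumors. Prrx2 had 61.5, 34.0 and 51.8 CPM in primary and 27.1, 20.5 and 36.7 CPM in liver tumors. In both genes primary replicate 2 was the lowest primary library and fell just under liver replicate 3. The log2 changes were -0.82 (SE 0.30, adjusted p = 0.0880) and -0.81 (SE 0.29, adjusted p = 0.0804). Without primary replicate 2 both were called lower, at -1.0 (adjusted p = 0.0269) and -1.01 (0.0179).

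Cdh2 was spread widely in the liver tumors, with 42.5, 105.6 and 87.9 CPM against 51.3, 37.1 and 34.7 CPM in the primary ones. Liver replicate 1 lay inside the primary range, and the log2 change of 0.94 (SE 0.33, adjusted p = 0.0789) was not called. Without that library it was called higher, at 1.21 (adjusted p = 0.0210).

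Zeb1, Zeb2 and Prrx1 overlapped between the sites. Zeb1 ran from 34.7 to 58.2 CPM in primary and 37.1 to 48.5 CPM in liver tumors (log2 change -0.24, 95% interval -0.78 to 0.31). For Zeb2 the ranges were 24.7 to 58.0 and 33.4 to 65.0 CPM (0.20, interval -0.61 to 1.0). Prrx1 ranged from 8.24 to 24.6 and from 16.4 to 33.5 CPM (0.27, interval -0.75 to 1.29). With totals free of hepatocyte markers, Zeb2 and Prrx1 were at -0.17 and -0.087. Each interval of the TMM fit allows a change of at least 1.5-fold in 1 direction, so no change was not shown. The annotation (GENCODE vM21, GRCm38) puts the antisense gene Zeb2os over exon bases of Zeb2 and Gm10125 over those of Zeb1, and whether counting used strand is not given in the sources used here.

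Set per length, the deposited FPKM ordered the members within a site. Vim was by far the highest, at 552.5 ± 138.4 FPKM in primary and 299.9 ± 41.3 FPKM in liver tumors. In primary tumors Prrx2 (24.8 ± 7.03), Twist1 (13.8 ± 3.33) and Tgfbi (12.3 ± 3.60 FPKM) came next. The latter pair overlapped. In liver tumors Tgfbi stood second (35.4 ± 3.40), before Prrx2 (14.3 ± 3.89), Cdh2 (9.82 ± 4.16) and Twist1 (7.92 ± 2.33 FPKM), of which Cdh2 overlapped both neighbours. Zeb1 was at 4.85 ± 1.26 and 4.17 ± 0.52 FPKM, overlapping with Cdh2 (5.05 ± 1.14) in primary tumors. Zeb2, Prrx1, Snai1 and Snai2 were all at or below a mean of 2.62 FPKM in both sites. Among these 4 genes neighbours in the order overlapped, except that Snai2 (0.62 ± 0.36 FPKM) lay below Snai1 (1.48 ± 0.40 FPKM) in primary tumors.

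The genes with the most similar pattern over the 6 libraries were sought among 11687 genes of at least 5 CPM, by the root mean square difference of mean-centred log2 CPM. For Twist1 the closest were Enah (0.08), Prrx2 (0.09) and Sfxn4 (0.10), and for Prrx2 they were Adamtsl4 (0.07), Fzd2 (0.09) and Twist1. Tgfbi was closest to Ear2 (0.10), Cd52 (0.12) and Gbp4 (0.13), of which Cd52 is one of the leukocyte markers used here. Vim was closest to Arhgap27, Rabl6 and Nol3 (0.04 to 0.06), Zeb1 to Ints2, Ppp1r12a and Mcm4 (0.05 to 0.06) and Zeb2 to the mitotic genes Bub1, Hmmr and Kif20b (0.08 to 0.09). Cdh2 (Syne1, Wdfy3, Pik3ap1) and Prrx1 (Sema3a, Pclaf, Fam78b) had no gene nearer than 0.14 and 0.13. These are descriptions of 6 libraries that share their site and composition.

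Other genes of the program were taken from fixed lists, whose counts are read against the 16.7% of all genes tested that were higher and the 6.26% that were lower. Of 14 tested further transcription factors of the transition, 5 fell and 0 rose in liver tumors in edgeR. The count of rises was also 0 in DESeq2, in limma-voom and at an unadjusted p under 0.05. The list's median was -0.63 on the log2 scale. They were Sox4 (-1.05), Sox9 (-0.97), Tcf4 (-0.81), Foxc1 (-1.47) and Tcf3 (-0.66), which encode SOX, E-protein and forkhead factors. In each of the 5, every liver library was below every primary one. The 3 keratins of the gate were also lower in every liver library, and Sox4, Sox9, Foxc1 and Tcf3 were higher in epithelial cells than in leukocytes in the cell data; the part of the keratin-bearing cells was not tested. The count of 5 went to 0 without primary replicate 3, without liver replicate 1 or without liver replicate 2, to 1 without primary replicate 1, and to 7 without primary replicate 2. Lower calls over all genes moved too, from 1032 to 606, 414, 134, 876 and 1468 in the same order. These fits tested 16827 to 17050 genes. Of 24 mesenchymal effector genes, 4 rose: the smooth muscle genes Tagln (1.60) and Acta2 (1.10), the PDGF receptor gene Pdgfrb (0.98) and the collagen gene Col3a1 (1.43). This is the background share of higher genes. None fell in edgeR, while DESeq2 and limma-voom each had 1 lower gene and 3 had an unadjusted p under 0.05. The median was -0.17. Col3a1 also belongs to the fibroblast marker list. Without liver replicate 2 the 4 rises went to 0, and to 1 without primary replicate 3, without either other liver library, or with totals free of hepatocyte markers. Higher calls over all genes went from 2755 to 2226 with those totals. They went to 1810 without liver replicate 2, 2172 without primary replicate 3, and 2097 and 2447 without liver replicates 1 and 3.

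Of 15 tested genes of the epithelial state, 3 rose and 2 fell, with a median of -0.15, and the rises are near the background share. The desmosome gene Dsp (4.10), the P-cadherin gene Cdh3 (2.73) and the transcription factor gene Grhl1 (2.57) rose, while Prom1 (-2.34) and Elf3 (-2.19) fell. Gated epithelial cells of the primary and liver libraries had 65.7 and 71.8 CPM of Dsp. Cdh3 was at 3.33 and 1.40 CPM there and Grhl1 at 1.11 and 1.54 CPM, on 12 and 4 primary UMIs. Prom1 was at 92.6 and 62.7 CPM and Elf3 at 352.9 and 149.2 CPM. The part of other cells, such as hepatocytes, in these bulk changes was not tested. Without primary replicate 2 the rises numbered 5, and without any 1 of the liver libraries a single gene fell. Over all genes, 3346 were higher without primary replicate 2, against 2755 in the main fit. Without liver replicates 1, 2 and 3 in turn, 414, 134 and 822 of all genes were lower, against 1032. Cdh1, the target of the Snail and ZEB repressors, had 356.2, 1170 and 503.9 CPM in primary and 251.4, 332.7 and 262.5 CPM in liver tumors (log2 change -1.26, adjusted p = 0.0688). Among 15 genes of TGF-beta signalling, 1 fell (Skil, a SMAD corepressor gene, at -0.81) and 0 rose in edgeR, in DESeq2, in limma-voom or at an unadjusted p under 0.05. At an unadjusted p under 0.05, 3 were lower. A fall of 1 in 15 is near the background share. This count went to 0 when any single library other than primary replicate 2 or liver replicate 3 was left out, to 3 without liver replicate 3, and to 5 with totals free of hepatocyte markers. With those totals 3546 of all genes were lower. Leaving out primary replicates 1 and 3 in turn left 876 and 606 of all genes lower. The ligand gene Tgfb1 was not called (-0.58, adjusted p = 0.0949), nor were the receptor genes Tgfbr1 (0.08) and Tgfbr2 (-0.05).

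The cell data place the members in cell types. Summed UMIs of epithelial cells and leukocytes were compared over both libraries, with the library as a block. Prrx2, Twist1 and Prrx1 were higher in epithelial cells and Zeb2 and Tgfbi were higher in leukocytes. Over 13971 genes tested, 12.9% were called higher in epithelial cells and 16.5% higher in leukocytes. The fit has 4 sums and 1 residual degree of freedom, and with a keratin gate of 10 UMIs per 10000 in place of 30 none of the 5 calls remained (adjusted p from 0.0805 to 0.0902), with every direction kept. With leukocytes limited to under 5 keratin UMIs per 10000, 6 members were called higher in epithelial cells. The 12.9% and 16.5% belong to the main gates. Shares of all genes under the other gates were not computed, so the member counts there have no background to be read against.

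**Figure D2:**
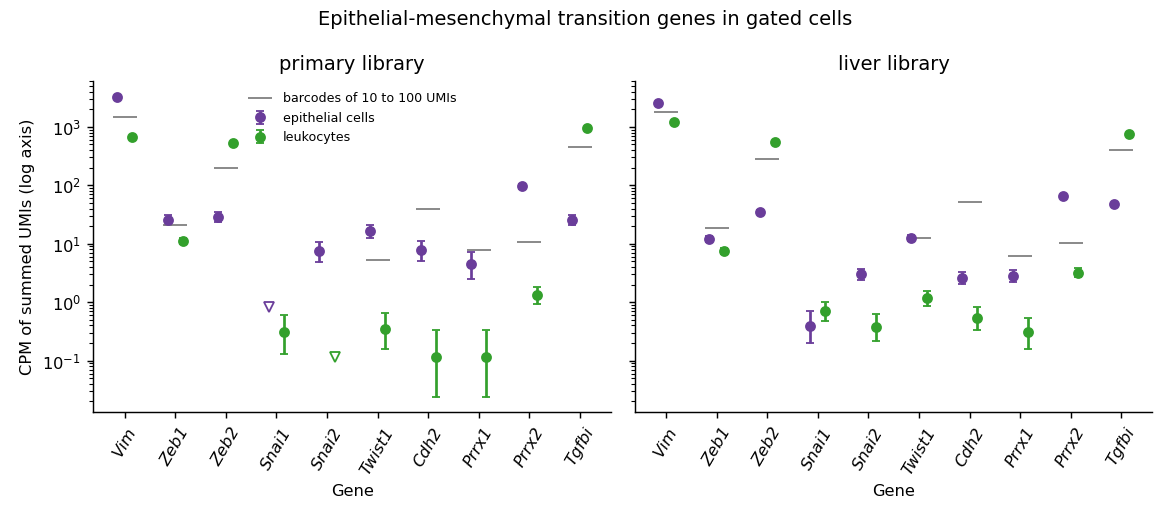
CPM of summed UMIs (y axis, log) for each gene (x axis) in epithelial cells (purple) and leukocytes (green) of each library, with exact Poisson 95% intervals; open triangles mark sums of 0 UMIs at the level of 3 UMIs, and grey dashes barcodes of 10 to 100 UMIs. Prrx2 and Twist1 are higher in epithelial cells and Zeb2 and Tgfbi in leukocytes in both libraries.

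Among the members, Prrx2 was the transcription factor gene with the largest difference in the main fit. With leukocytes limited to under 5 keratin UMIs per 10000, Snai2 had a larger log2 difference (6.44 against 5.73). Epithelial cells had 95.9 CPM of Prrx2 in the primary and 65.6 CPM in the liver library (346 and 1831 UMIs), and leukocytes had 1.33 and 3.22 CPM. Epithelial cells were thus higher by 72.4-fold and 20.4-fold (log2 difference 5.09, SE 0.60, adjusted p = 0.0278). After thinning every cell to 1000 UMIs, 10.3% (95% interval 6.71 to 14.9%) and 5.15% (4.46 to 5.92%) of epithelial cells had a Prrx2 UMI. The share was 0.16% and 0.49% in leukocytes. Unthinned, it was 40.8% and 23.3% of epithelial cells at median depths of 5812 and 3303 UMIs, and 1.77% and 3.29% of leukocytes at 12740 and 10012 UMIs.

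Twist1 had 16.4 and 12.5 CPM in epithelial cells against 0.34 and 1.19 CPM in leukocytes (log2 difference 4.20, SE 0.71, adjusted p = 0.0359). Prrx1, the other Prrx homeobox gene, was lower, with 4.44 and 2.80 CPM against 0.11 and 0.30 CPM (3.88, SE 0.77, adjusted p = 0.0415). Barcodes of 10 to 100 UMIs, taken as mostly free RNA, held 5.29 and 12.5 CPM of Twist1 (2 and 6 UMIs), 7.94 and 6.26 CPM of Prrx1 (3 UMIs each) and 10.6 and 10.4 CPM of Prrx2. For Prrx1 in both libraries and Twist1 in the liver library this is at or above the epithelial level, within wide counting intervals. Between the paralogs, epithelial cells thus held 346 and 1831 UMIs of Prrx2 but 16 and 78 of Prrx1. The Prrx1 call ended at a mitochondrial limit of 20% (adjusted p = 0.0508) and at a keratin gate of 100 (0.0507).

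Snai2 and Cdh2 pointed to epithelial cells without passing. Snai2 had 7.48 and 3.01 CPM in epithelial cells, and 0 UMIs and 0.38 CPM in leukocytes (log2 difference 4.52, SE 1.52, adjusted p = 0.104 in edgeR). With 3 UMIs over the primary leukocytes as the floor, the primary epithelial level was 65.9-fold of it. That fold leaves out the counting error of the epithelial UMIs. Cdh2 had 7.76 and 2.62 CPM in epithelial cells and 0.11 and 0.53 CPM in leukocytes (log2 difference 3.67, SE 1.15, adjusted p = 0.0920), under the 39.7 and 52.2 CPM of barcodes of 10 to 100 UMIs. Both genes rested on few UMIs, 27 and 28 in the primary epithelial cells.

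Vim was detected in both classes. Epithelial cells had 3303 and 2571 CPM and leukocytes 673 and 1196 CPM, a difference of 4.91-fold in the primary and 2.15-fold in the liver library (log2 difference 1.60, SE 0.38, adjusted p = 0.0563). It passed under 6 of the alternatives, among them the one that left out droplets past both gates (1.63, adjusted p = 0.0253). The leukocyte levels were under those of barcodes of 10 to 100 UMIs, which had 1464 and 1786 CPM of Vim. At 1000 UMIs per cell, 87.6% and 74.2% of epithelial cells had a Vim UMI, against 36.7% and 59.5% of leukocytes. Single cells had medians of 30.4 and 17.3 UMIs per 10000 in all epithelial cells and 3.68 and 8.82 in leukocytes. At the low end of the liver library the order was the other way, with a 5th percentile of 0 in epithelial cells and 1.01 in leukocytes. Median depths there were 3303 UMIs in epithelial cells and 10012 in leukocytes, and a shallower cell is more often at 0. The part of depth in this order was not tested. By the 10th percentile, epithelial cells low in leukocyte markers were at 2.57 and leukocytes at 2.27.

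**Figure D3:**
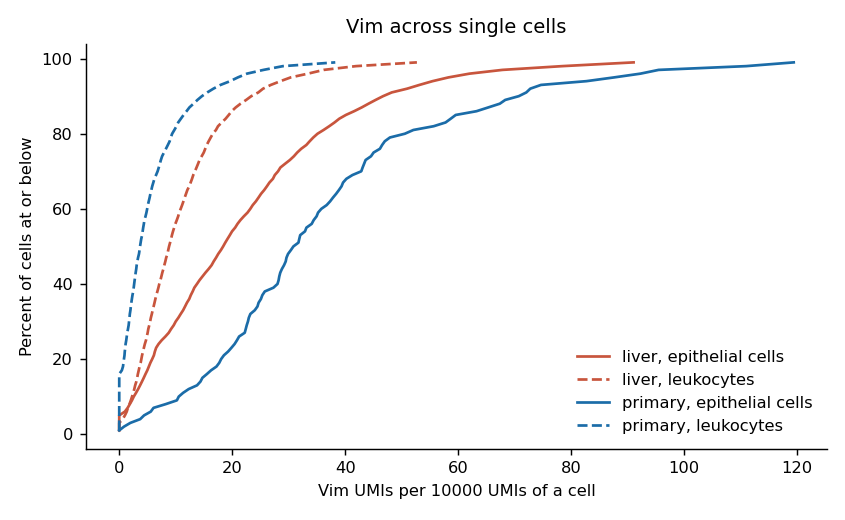
Percent of cells (y axis) with at most a given Vim level (x axis, UMIs per 10000 UMIs of the cell) for epithelial cells with leukocyte markers under 20 UMIs per 10000 (solid lines) and leukocytes (dashed lines) of the primary (blue) and liver (red) libraries, from the 1st to the 99th percentile. At the median the epithelial curves lie to the right of the leukocyte curves in both libraries. In the liver library the curves are nearer and cross at the low end, where the 5th percentile is 0 in epithelial cells and 1.01 in leukocytes. Median depths there are 3904 UMIs in these epithelial cells and 10012 in leukocytes, and shallower cells are more often at 0.

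Zeb2 and Tgfbi were highest in leukocytes. Zeb2 had 29.1 and 35.2 CPM in epithelial cells and 527 and 558 CPM in leukocytes, which were 18.1-fold and 15.8-fold higher (log2 difference -4.18, SE 0.23, adjusted p = 0.0260). Tgfbi had 25.8 and 47.8 CPM in epithelial cells and 975 and 761 CPM in leukocytes, 37.8-fold and 15.9-fold higher (-4.70, SE 0.46, adjusted p = 0.0260). Barcodes of 10 to 100 UMIs held 195.9 and 277.5 CPM of Zeb2 and 444.7 and 402.7 CPM of Tgfbi, more than the epithelial cells of either library. What part of the epithelial level of these genes is free RNA was not tested.

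The ZEB paralogs thus differed in their place. Zeb1 had 25.8 and 12.0 CPM in epithelial cells and 11.2 and 7.40 CPM in leukocytes (log2 difference 0.84, SE 0.26, adjusted p = 0.0824). The difference between Zeb1 and Zeb2 was not tested as such. Snai1 was at the edge of detection, with 0 UMIs in the 233 primary epithelial cells and 11 UMIs in the 3649 liver ones. A floor of 3 cells would be 1.29% of the primary epithelial cells. Leukocytes held 8 and 28 UMIs of Snai1 (log2 difference -1.20, adjusted p = 0.352).

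Within leukocytes, cells were split by marker gates whose thresholds were set after seeing the data, and no test was run. Zeb2 was highest in cells of the macrophage or monocyte gate, at 600.0 and 595.3 CPM, and lower in neutrophil (301.9 and 158.8), T cell (56.2 and 47.1) and dendritic (14.3 and 57.1 CPM) gates. The same gate had the highest Tgfbi, at 1122 and 820 CPM, with 247.2 and 275.7 CPM in neutrophils and 19.0 and 35.0 CPM in T cells. Zeb1 was lowest in that gate. Macrophage or monocyte cells had 5.21 and 4.52 CPM of it, and T cells 56.2 and 42.7, dendritic cells 50.4 and 50.9 and neutrophils 45.9 and 24.4 CPM. The counting intervals of T cells (44.8 to 69.7 and 30.4 to 58.4 CPM) did not reach those of macrophages or monocytes (4.30 to 6.25 and 3.84 to 5.28 CPM). These gates held 1476 and 2920 macrophage or monocyte cells, 157 and 234 neutrophils, 112 and 129 T cells and 33 and 69 dendritic cells.

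**Figure D4:**
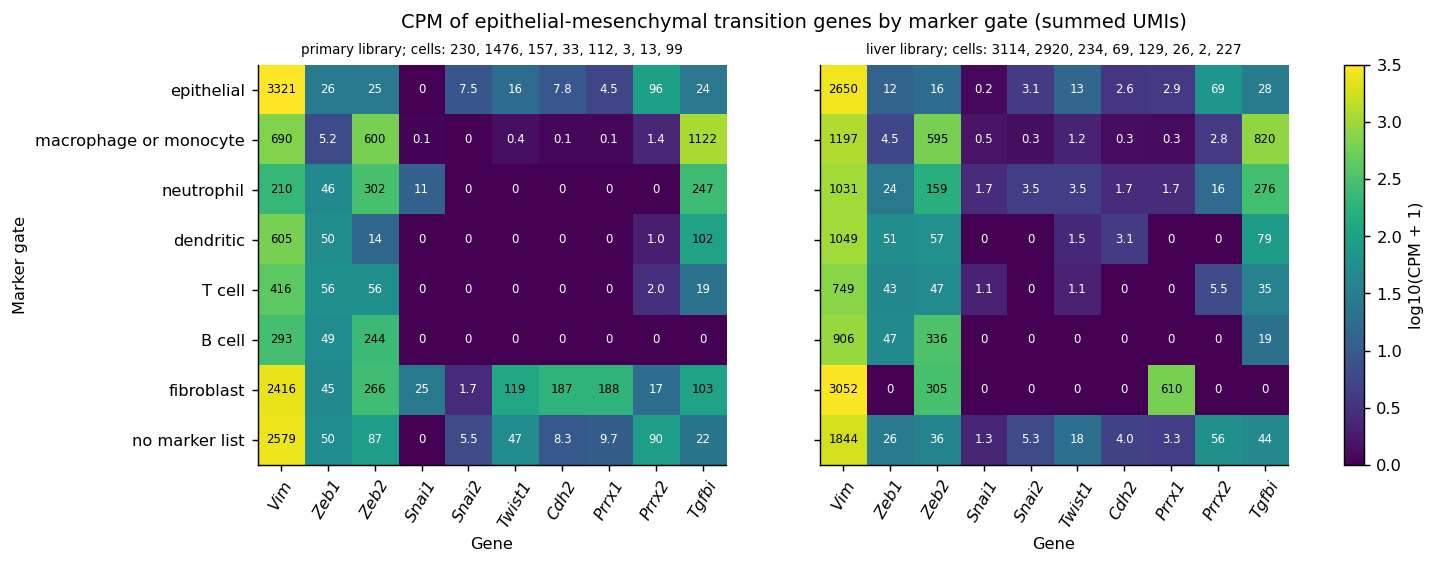
CPM of summed UMIs of each gene (columns) in cells of each marker gate (rows) of the primary (left) and liver (right) libraries, printed in each field and colored by log10(CPM + 1); cell numbers stand above each panel in row order. Zeb2 and Tgfbi are highest in the macrophage or monocyte row among leukocytes, Prrx2 in the epithelial row, and Cdh2 and Prrx1 in the primary fibroblast row, while the liver fibroblast row rests on 2 cells.

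Fibroblast-gated cells had another set. The primary library held 13 such cells, which passed neither the keratin nor the leukocyte gate, and the liver library 2. In the 13 cells Prrx1 reached 188.3 CPM (112 UMIs), Cdh2 186.6 CPM (111 UMIs), Twist1 119.4 CPM (71 UMIs) and Snai1 25.2 CPM (15 UMIs). The levels in primary epithelial cells were 4.44, 7.76, 16.4 and 0 CPM. Prrx2 was the other way around, at 16.8 CPM (10 UMIs) against 95.9 CPM, and its counting interval of 8.06 to 30.9 CPM lay below that of epithelial cells (86.1 to 106.6 CPM). Vim was at 2416 CPM in these fibroblast-gated cells and 3303 CPM in the epithelial ones. The 13 cells also carried mesothelial markers, at 6.51 UMIs per 10000, and are from 1 library.

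Liver and primary libraries were then compared within each class, with 1 library per site and therefore no test. A member counted as different when it differed by more than 2-fold with at least 20 UMIs in 1 library. In epithelial cells Zeb1, Snai2 and Cdh2 were lower in the liver library and none was higher, against 7.01% and 9.8% of 12587 genes. The ratios were 0.467 for Zeb1 (counting interval 0.370 to 0.594), 0.402 for Snai2 (0.258 to 0.646) and 0.337 for Cdh2 (0.215 to 0.542). With a keratin gate of 100 none of the 3 remained past 2-fold lower (Snai2 had 0 UMIs in the primary library and 30, or 2.91 CPM, in the liver one, which shows no direction since 3 UMIs are 2.94 CPM there), and at a mitochondrial limit of 20% only 1 did. The bulk tumors had shown the other direction for Snai2 and Cdh2, with log2 changes of 2.05 and 0.94, whereas Zeb1 was at -0.24 there. Bulk libraries came from tumor tissue, while these epithelial cells were gated in CD45-sorted libraries, so the measures cover different cells. The cause of the opposite directions was not tested.

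Other members moved less in epithelial cells. Vim was at 0.778 of the primary level, Twist1 at 0.763, Prrx2 at 0.684 and Prrx1 at 0.630, all in the direction of the bulk change except Prrx1. Tgfbi stood at 1.85 in the liver library and at 1.20 with droplets past both gates left out. Zeb2 turned from 1.21 to 0.661 without those droplets. At a keratin gate of 100, Prrx2 was at 1.37, Tgfbi at 0.618 and Zeb2 at 0.894. They took 535 of the 3649 liver epithelial cells, and leukocyte markers made 6.95 UMIs per 10000 in the liver epithelial cells against 1.75 in the primary ones.

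In leukocytes 4 members were higher in the liver library and none was lower, against 10.2% and 9.5% of 13071 genes: Snai1 (2.34-fold), Twist1 (3.49-fold), Cdh2 (4.68-fold) and Prrx2 (2.43-fold). Cdh2 rested on 3 and 21 UMIs. Snai2 had 0 UMIs in primary leukocytes and 15 in liver ones, under the minimum of 20. The counting interval of its ratio ran from 2.40 upward. Keratins made 0.754 UMIs per 10000 in primary leukocytes and 6.42 in liver ones. Among leukocytes with keratins under 5 UMIs per 10000, none of the members was past 2-fold higher with at least 20 UMIs in a library, and Prrx2 was 1.47-fold higher. Snai1 (2.56-fold), Twist1 (2.76-fold) and Cdh2 (4.60-fold) stayed past 2-fold there, on 13, 16 and 10 liver UMIs, under that minimum. Snai2 had 0 and 2 UMIs in these leukocytes, with an interval from 0.259 upward. Vim was 1.78-fold higher in liver leukocytes and 1.86-fold higher in those low in keratins. In the primary library it was at 416 CPM in T cells and 210 CPM in neutrophils, and in the liver library at 749 and 1031 CPM. Keratins made 0.359 and 2.19 UMIs per 10000 in these gates of the primary library. In the liver library they made 9.24 and 19.1 UMIs per 10000. The part of RNA from other cells in these Vim levels was not tested.

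**Figure D5:**
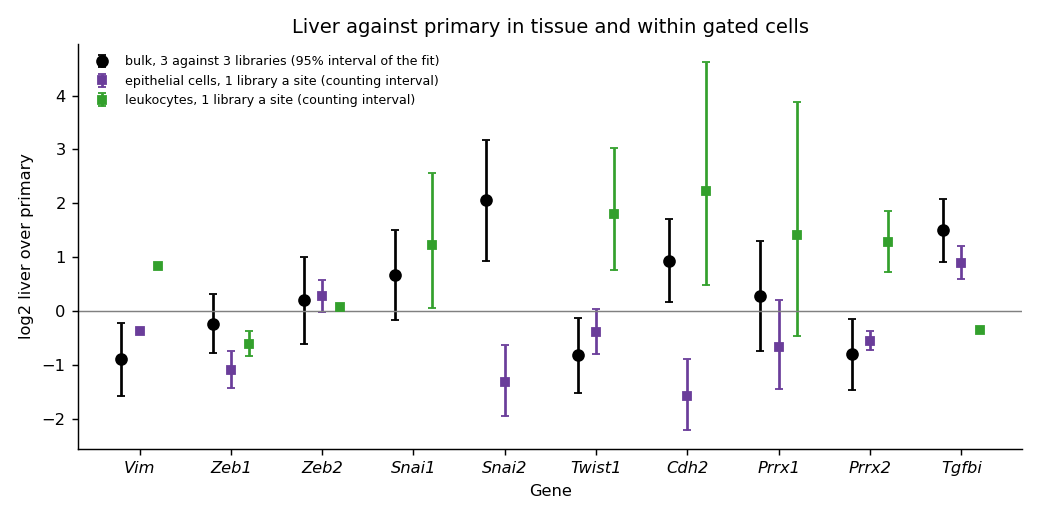
log2 of liver over primary (y axis) for each gene (x axis) in bulk tumors (black, 3 against 3 libraries, 95% interval of the fit), in epithelial cells (purple) and in leukocytes (green; squares, 1 library per site, 95% counting interval). Snai2 and Cdh2 lie above 0 in bulk tumors and below 0 in epithelial cells; Snai1 in epithelial cells and Snai2 in leukocytes have no ratio because 1 sum is 0.

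Among epithelial cells, Prrx2, Twist1 and Vim were set out by keratin level, although this split is by genes of the gate. No test was run. Prrx2 in the primary library was at 121.8 CPM in cells with 30 to 60 keratin UMIs per 10000, 105.4 CPM at 60 to 100 and 48.1 CPM above 100. In the liver library it was at 78.9, 64.7 and 65.6 CPM. Twist1 was at 17.8, 21.3 and 9.82 CPM and at 19.5, 12.3 and 9.66 CPM in the same order. The primary cells above 100 numbered 51, with 10 UMIs of Twist1 and 49 of Prrx2. Fibroblast markers made 3.56 UMIs per 10000 in those 51 cells, against 0.06 at 30 to 60 and 0.09 at 60 to 100. Vim was lowest at 30 to 60 keratin UMIs per 10000 in both libraries, and in the primary library highest at 60 to 100. It had 2825, 3956 and 3473 CPM in the primary and 2053, 2337 and 3334 CPM in the liver library.

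Few epithelial cells showed more than 1 of the 7 transcription factor genes. In cells thinned to 3000 UMIs and low in leukocyte markers, 99 of 163 primary cells (60.7%) and 1419 of 1875 liver cells (75.7%) had none of them. A single factor was seen in 31.9% and 21.2%, a pair in 6.75% and 3.04%, and 3 or more in 1 cell of each library. At these depths a cell without a UMI may still express the gene. A UMI may also be free RNA: Zeb2, one of the 7, was at 195.9 and 277.5 CPM in barcodes of 10 to 100 UMIs against 29.1 and 35.2 CPM in epithelial cells, and these shares were not corrected for it.

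Listed genes beside the members are read against the 12.9% of all genes tested that were higher in epithelial cells and the 16.5% higher in leukocytes. Of 13 tested further transcription factors, 7 were higher in epithelial cells, among them Twist2 (4.19), Fosl1 (4.20), Foxc1 (4.37) and Sox4 (2.87), and Etv5 (-1.22) was higher in leukocytes; their median log2 difference was 2.87, against -0.11 over all genes tested. Of 22 mesenchymal effectors only the lysyl oxidase gene Loxl2 (3.96) was higher in epithelial cells. The 6 higher in leukocytes included Thbs1 (-4.40), Axl (-1.98), Mmp14 (-1.37) and Mmp2 (-3.90), with a median over the list of 0.77. Of 15 genes of TGF-beta signalling, Smad3 (1.54) was higher in epithelial cells, and Tgfbr1 (-2.96), Tgfbr2 (-1.92), Tgfb1 (-1.21) and Bambi (-2.97) were higher in leukocytes, with a median of 0.12. Epithelial genes, 8 of 16 higher in epithelial cells, had a median of 4.12.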

How the data were processed

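Raw read counts per gene and FPKM of 6 bulk libraries, and UMI counts of all barcodes of 2 single-cell libraries, were used as deposited by the authors. Cell Ranger format version 3.0.0 is given per the file headers, and mm10 per the submitters' processing notes; the aligner, counter and strand setting of the bulk data are not given in the sources used here. FPKM deposited by the authors served for levels per length and an alternative test (log2 of FPKM plus 1 or 0.1, limma).

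Bulk counts were filtered (filterByExpr) and tested in edgeR 4.0.16 (R 4.3.3; TMM, robust quasi-likelihood, two-sided, Benjamini-Hochberg over all genes, threshold 0.05); CPM use TMM-scaled totals. Cells needed at least 1500 UMIs, 200 genes and at most 10% mitochondrial UMIs; no doublet caller was run, and droplets past both gates were left out as an alternative. UMIs summed per class and library were tested in edgeR with a library block. Poisson and Clopper-Pearson intervals (95%) cover counting error only. Both fits were tested on simulated counts.

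The members and lists were chosen with earlier results of these data known. Named genes were all members, up to 4 called genes of each list by p-value (some others are named after their values were seen), and the 3 genes most like each member of at least 5 CPM.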

Additional observations from a re-analysis of the deposited data

Results flagged for a closer look

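Cdh2 was found in barcodes of 10 to 100 UMIs, which are outside the cell classes compared, at a level above both cell classes of the same library. These barcodes held 39.7 CPM of Cdh2 in the primary library (15 UMIs in 15 barcodes, interval 22.2 to 65.5 CPM) and 52.2 CPM in the liver library (25 UMIs in 25 barcodes, interval 33.8 to 77.0 CPM). Epithelial cells had 7.76 and 2.62 CPM and leukocytes 0.11 and 0.53 CPM. The 13 fibroblast-gated cells of the primary library were above these barcodes, at 186.6 CPM. No other member was above both classes with separate counting intervals. The cause was not tested.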

How the results depend on the processing

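Limits: bulk groups hold 3 libraries, the class fit has 1 residual degree of freedom, and members such as Snai1 rest on few UMIs. In bulk, 125 of 148 member changes kept direction and side of the threshold, and 58 of 75 class differences did. Totals without hepatocyte markers moved the median of all genes from -0.07 to -0.42 and the calls from 2755 higher and 1032 lower to 2226 and 3546; they called 3 members lower (Vim, Twist1, Prrx2), 5 genes of TGF-beta signalling, 4 epithelial and 3 mesenchymal genes lower and 1 mesenchymal gene higher, and turned Zeb2 (-0.17) and Prrx1 (-0.087). Both also turned without primary replicate 2 (-0.07 and -0.07) and without liver replicate 3 (-0.10 and -0.18), with ranges over single left-out libraries of -0.10 to 0.49 and -0.18 to 0.54. Members called lower numbered 2 with no filter and 1 in DESeq2, limma-voom and both FPKM fits. A filter of 5 CPM tests fewer genes and left 1 member and 1 epithelial gene higher, 3 transcription factors lower and 0 genes of TGF-beta signalling. The FPKM fits called 1 epithelial gene lower; for TGF-beta signalling they called 2 (plus 1) and 0 (plus 0.1). DESeq2, limma-voom and FPKM plus 1 called 1 mesenchymal gene lower. The labels give no pairing, so libraries were not treated as paired. Same-numbered libraries correlated at -0.19, 0.27 and 0.10, and other pairs at -0.406 to 0.235. With 3 libraries per site these values cannot settle pairing. With a replicate block, 2 members (Twist1 and Prrx2) and 3 transcription factors were lower, and all genes gave 2788 higher and 874 lower. Leaving out 1 library gave 1 to 2 members higher and 0 to 2 lower, 0 to 7 transcription factors lower, 0 to 5 mesenchymal genes higher and 0 to 2 lower, 2 to 5 epithelial genes higher and 1 to 3 lower, and 0 to 3 genes of TGF-beta signalling lower. The same fits called 1810 to 3346 of all genes higher and 134 to 1468 lower. In cells, the keratin gate of 10 left 0 members called in either direction, with 2 members past 2-fold higher in liver epithelial cells and 2 in leukocytes. A gate of 100 gave 1 higher (Snai2, from 0 UMIs, with no fold shown) and 0 lower in epithelial cells, a UMI minimum of 1000 gave 1 higher, and a mitochondrial limit of 20% 1 lower. Leukocytes with keratins under 5 gave 6 members called higher in epithelial cells, 0 past 2-fold higher (Snai1, Twist1 and Cdh2 kept folds of 2.56, 2.76 and 4.60 on under 20 UMIs) and 1 (Zeb1) lower in leukocytes. For the class fit, shares of all genes called under these other cell settings were not computed. The cause of these moves was not tested.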

Other observations

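Some cells passed neither gate and stayed under 20 UMIs per 10000 for each further marker list screened. These lists were fibroblast, erythroid, acinar, endothelial, hepatocyte, stellate or mural, and mesothelial. Nerve or glia markers and single leukocyte types were not screened. Such cells numbered 99 in the primary and 227 in the liver library. Dendritic markers made 1.29 and 2.74 UMIs per 10000, against 0.11 and 0.08 in epithelial cells. Keratins in these cells, at 18.1 and 22.0 UMIs per 10000, were under the gate of 30. Prrx2 stood at 90.0 and 55.6 CPM in them, near the 95.9 and 65.6 CPM of the epithelial cells, and Vim at 2579 and 1844 CPM. Twist1 was at 47.1 CPM in the primary ones (interval 32.6 to 65.8 CPM), above the 16.4 CPM of the gated epithelial cells (12.4 to 21.1 CPM). In the liver ones it was at 17.9 CPM, with an interval that overlapped that of the epithelial cells. No test was run on these sums.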
